A study of Mus musculus with 15 samples.

Results

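Nucleosome occupancies at gene promoters were compared between 3T3 fibroblasts, an immortalised line of mouse fibroblasts, in the resting state and 1 h after addition of TNF-α at 5 ng/ml. The promoters used were those with a coverage score above 100 in the authors' promoter annotation, 13559 (52.4%) of 25881 annotated transcription start sites (TSSs). Both states were assayed by ChIP-MNase for H3K4me1: cells were fixed with formaldehyde, large pieces of chromatin carrying this histone mark were immunoprecipitated, and micrococcal nuclease then digested the DNA between nucleosomes. None of the cells carried a knockdown of the BAF remodelling complex, and lines made for such a knockdown or as its control were not used here. Dendritic cells, at rest and after 1 h with bacterial lipopolysaccharide (LPS) at 100 ng/ml, were used only for comparison. For each state the authors pooled 2 replicates into 1 set of occupancies, so that 1 set stood against 1 set, there was no replicate error, and no p-value was calculated. A difference at a single promoter therefore has no replicate check, and counts past a fixed limit are given in place of tests.

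A nucleosome is the unit of DNA wrapped around histones, and its position decides which stretches of a promoter are exposed. Transcribed promoters typically have a nucleosome depleted region (NDR) just upstream of the TSS, followed by a +1 nucleosome and a regular array downstream, and many of them lie in CpG islands (CGIs). TNF-α binds its receptor on fibroblasts and releases NF-κB, a dimer of Rel proteins, from its IκB inhibitors in the cytoplasm, after which NF-κB binds κB sites in promoters of chemokines, cytokines, adhesion molecules and its own inhibitors.

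The sequences of 6 upstream windows are shown because the values below turn on them: at the chemokine promoters Ccl2, Cxcl5, Ccl20 and Cxcl10 less occupancy lay in this window after TNF-α, at the cytokine promoter Il6 and at the most upstream covered start of Nfkb2 more. Each sequence runs 5′ to 3′ on the gene's own strand (build mm9) over the 150 bp that end just before the TSS, from the NCBIM37 genome. At Ccl2 it stops short of the TSS where an annotated exon begins, and none of the 6 overlaps an annotated exon. Capitals mark matches on either strand to a κB site, read as the letters GGG and TTCC with 2 or 3 bases of any kind between them, so that matches can overlap.
Ccl2, chr11:81848929-81849072, plus strand: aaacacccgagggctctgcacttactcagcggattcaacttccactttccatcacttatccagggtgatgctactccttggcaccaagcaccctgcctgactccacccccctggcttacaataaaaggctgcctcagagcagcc
Cxcl5, chr5:91188175-91188324, plus strand: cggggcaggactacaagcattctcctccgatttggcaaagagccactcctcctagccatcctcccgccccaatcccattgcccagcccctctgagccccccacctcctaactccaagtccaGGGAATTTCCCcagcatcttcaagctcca
Ccl20, chr1:83113191-83113340, plus strand: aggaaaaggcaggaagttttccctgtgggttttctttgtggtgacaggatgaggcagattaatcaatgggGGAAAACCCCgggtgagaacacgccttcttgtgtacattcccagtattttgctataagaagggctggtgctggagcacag
Cxcl10, chr5:92777916-92778065, minus strand: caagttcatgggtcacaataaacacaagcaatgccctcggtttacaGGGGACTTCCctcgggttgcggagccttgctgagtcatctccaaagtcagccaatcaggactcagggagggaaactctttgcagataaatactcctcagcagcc
Il6, chr5:30339551-30339700, plus strand: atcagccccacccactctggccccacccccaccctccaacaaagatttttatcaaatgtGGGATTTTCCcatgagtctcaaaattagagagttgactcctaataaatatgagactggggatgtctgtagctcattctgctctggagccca
Nfkb2, chr19:46379077-46379226, plus strand: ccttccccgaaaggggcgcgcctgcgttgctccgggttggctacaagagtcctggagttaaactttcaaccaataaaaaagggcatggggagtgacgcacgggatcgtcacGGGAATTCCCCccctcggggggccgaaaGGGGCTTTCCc
Such a match was present in this 150 bp window at 860 (6.34%) of the 13559 promoters. A match is a run of letters and not a measured binding site. Ccl2 has none in the stretch shown, which says only that these letters are not in it, and holds one in the wider window used further on.

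Mean occupancy over the 2000 bp around the TSS was 1.63 in the resting set and 1.62 in the TNF-α set, in units that the authors scaled to the fragments in the surrounding 1 kb, with a constant that is not given in the sources used here. Because of this scaling, less signal at one position goes with more at its neighbours. The sets differed in the share of bins without signal, while their read depth is unknown: 12.7% of 10 bp bins were empty at rest and 18.04% after TNF-α, and 9703 promoters (71.6%) had more empty bins after TNF-α. The part of this difference in the values below was not tested. The median coverage score was 201. Of the promoters, 4481 (33.05%) had the start of another within 1000 bp, so that their windows share signal. Expression before stimulation (FPKM, given by the authors) exceeded 1.6 for 28 of 29 fibroblast marker genes and for 5 of 31 marker genes of myeloid and dendritic cells, and promoters above this limit are called expressed (6458), those at 0 silent (2301) and the remaining 4800 intermediate.

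After TNF-α the mean NDR of expressed promoters was somewhat deeper at CGIs, and the rest of the mean profile was nearly superimposable. Depth was expressed as a ratio, with the mean signal of the window from −150 to 0 bp over the mean signal of the far upstream flank (−1000 to −500 bp). At 4976 expressed CGI promoters this ratio was 0.432 at rest and 0.368 after TNF-α. At 1482 expressed promoters without a CGI it was 0.745 and 0.757, and at the 2301 silent promoters 0.947 and 0.961. The lowest point of the mean profile of expressed CGI promoters went from 0.62 to 0.493, whereas their +1 peak stayed in the same 10 bp bin with heights of 2.76 and 2.74. The next peaks lay at 325 and 515 bp at rest and at 335 and 535 bp after TNF-α, shifts of 1 to 2 bins of 10 bp. Empty bins went from 15.5 to 23.1% at expressed CGI promoters, from 9.19 to 13.5% at expressed promoters without a CGI and from 12.6 to 15.5% at silent promoters, so that the class with the deeper NDR was also the class with the largest difference in empty bins, whose part in it was not tested. The depth of the mean NDR also varied with coverage: expressed promoters with a score above 400 had ratios of 0.617 and 0.582, and those with a score of 100 to 200 had 0.49 and 0.428. Over all expressed promoters the ratio differed by −0.0462 (TNF-α minus resting), over those with a score above 300 by −0.0111, and over the 1258 with at most 10% empty bins in both sets, which leaves out deep NDRs, by 0.00506.

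**Figure D1:**
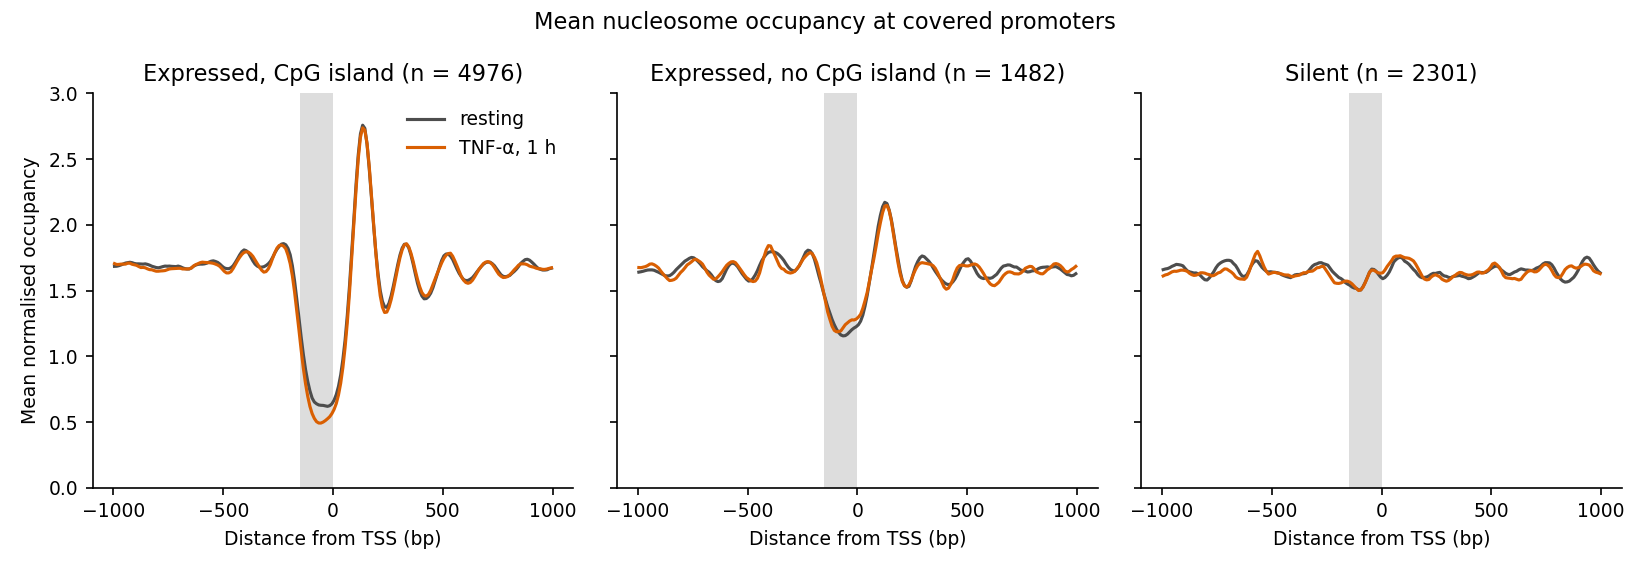
Mean normalised nucleosome occupancy (y axis) against distance from the TSS in bp (x axis) in resting (grey) and TNF-α-stimulated (orange) fibroblasts at expressed promoters with a CGI, expressed promoters without one and silent promoters, with the window from −150 to 0 bp shaded. The lines separate in the shaded window of expressed CGI promoters, where the lowest mean is 0.62 at rest and 0.493 after TNF-α, and otherwise run close together.

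Promoter by promoter, an NDR at rest was mostly an NDR after TNF-α. With 0.1 added to both windows, 3564 (55.2%) of the expressed promoters had a ratio below 0.5 at rest and 3934 (60.9%) after TNF-α. Of the 3564, 2800 (78.6%) were below 0.5 in both states. Among the other expressed promoters, 1134 (39.2%) were below 0.5 after TNF-α only, and 764 were so at rest only. Silent promoters were below 0.5 less often, 380 (16.5%) at rest and 409 (17.8%) after TNF-α, and 46.6% of the former were below in both. The upstream window held no signal at all at 1106 (17.1%) of the expressed promoters at rest and at 1906 (29.5%) after TNF-α, whereas at silent promoters this applied to 5.0 and 5.26%.

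For a measure of the whole arrangement, a patterning level was calculated after the study's methods: the mean profile of expressed promoters at rest, rescaled to lie between 0 and 1 and centred, was multiplied with each promoter's occupancy minus its own mean and summed over 200 bins. High levels mean an arrangement like that of an average expressed promoter, 0 no resemblance and negative levels the opposite arrangement. The median level of expressed promoters was 10.5 at rest and 10.6 after TNF-α, and that of silent promoters 0.559 and 0.312. The median difference (TNF-α minus resting) was 0.43 for expressed and −0.133 for silent promoters, small beside the quartiles of the difference over all promoters, −6.62 and 7.1. The sign for expressed promoters turned with a score above 300. That for silent promoters turned with at most 10% empty bins in both sets and with 1 promoter per run of starts within 1000 bp. In these recalculations the template was also made anew from the promoters kept. With the main template, the median difference of expressed promoters was 0.478 at a score of 100 to 200, 0.467 at 200 to 400 and 0.145 above 400. The level was higher by more than 10 after TNF-α at 2409 promoters, 17.8% of all, and lower by more than 10 at 2211, 16.3% of all. Upstream occupancy relative to the flank was over 2-fold lower after TNF-α at 3173 promoters (23.4%) and over 2-fold higher at 2137 (15.8%). Of the lower ones, 1439 had no signal in the window after TNF-α, and of the higher ones 555 had none at rest, so that their fold depends on the 0.1 added. Among the 3983 promoters with at most 10% empty bins in both sets, 358 were lower and 359 higher. Among the 10313 with signal in the window in both sets, 1734 were lower and 1580 higher, but this condition itself removes the calls without signal in either state. Where the level was higher by more than 10, the window was over 2-fold lower at 1412 promoters and over 2-fold higher at 58, as the template itself contains the NDR. The first peak downstream of the TSS moved by more than 50 bp at 5662 (41.8%) of the 13549 promoters with a peak in both sets. The share was similar at expressed (41.6%) and silent promoters (40.6%). Across the 200 bins, Pearson's r between the states of the same promoter had a median of 0.361 at expressed and 0.25 at silent promoters, a description over bins that share smoothing.

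**Figure D2:**
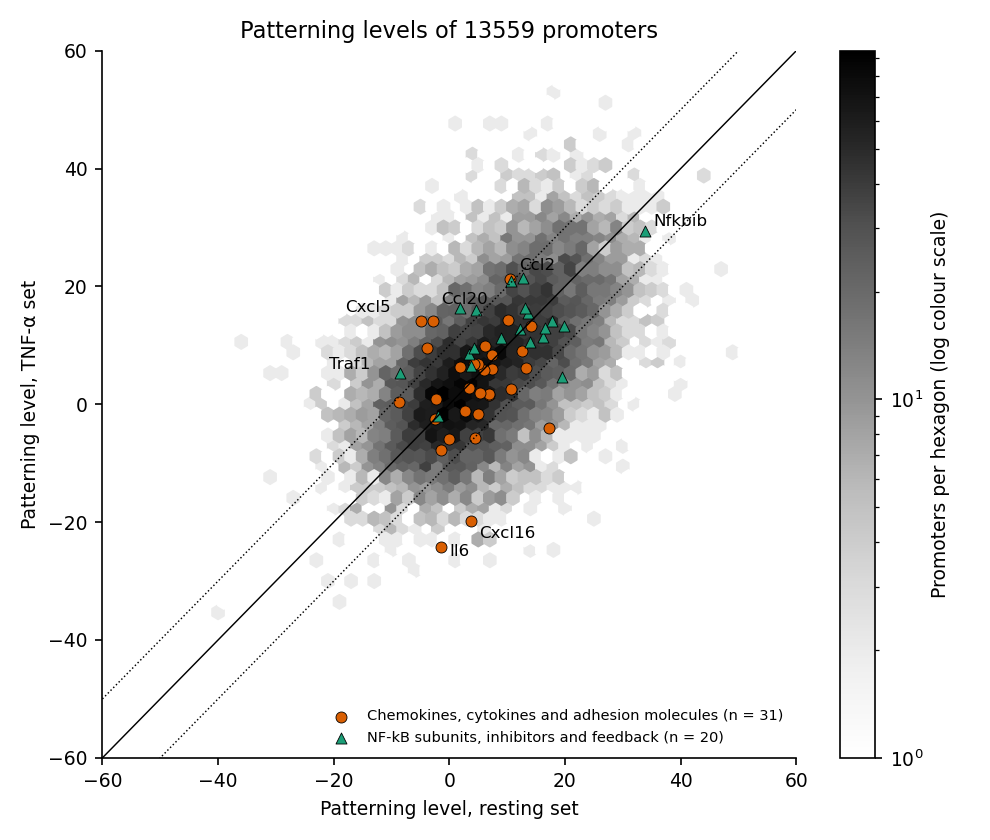
Patterning level in the TNF-α set (y axis) against that in the resting set (x axis) for the 13559 promoters, with grey hexagons shaded by the number of promoters on a log scale, orange circles for 31 promoters of chemokines, cytokines and adhesion molecules and green triangles for 20 promoters of NF-κB subunits and regulators. The solid line marks equal levels and the dotted lines differences of 10, beyond which lie 17.8% of promoters above and 16.3% below.

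These shares were smaller at promoters with a high coverage score, which by the paper's methods refers to non-stimulated cells of both types and not to the TNF-α set. A level higher by more than 10 was found for 19.3% of promoters with a score of 100 to 200, 17.5% at 200 to 400 and 13.6% above 400, and a lower one for 17.8, 15.6 and 13.3%. In dendritic cells, where resting cells and cells treated with LPS are also given as 1 pooled set each, the same calculation called 14.7% of the 13559 promoters higher and 13.6% lower. There, upstream occupancy was over 2-fold lower after LPS at 21.05% and over 2-fold higher at 14.8%, and the first downstream peak moved by more than 50 bp at 41.3%. The NDR ratio of expressed CGI promoters in dendritic cells was 0.486 at rest and 0.456 after LPS, with 11.1 and 16.2% of bins empty. The shares past the limits in single genes and lists below are to be read against these backgrounds.

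**Figure D3:**
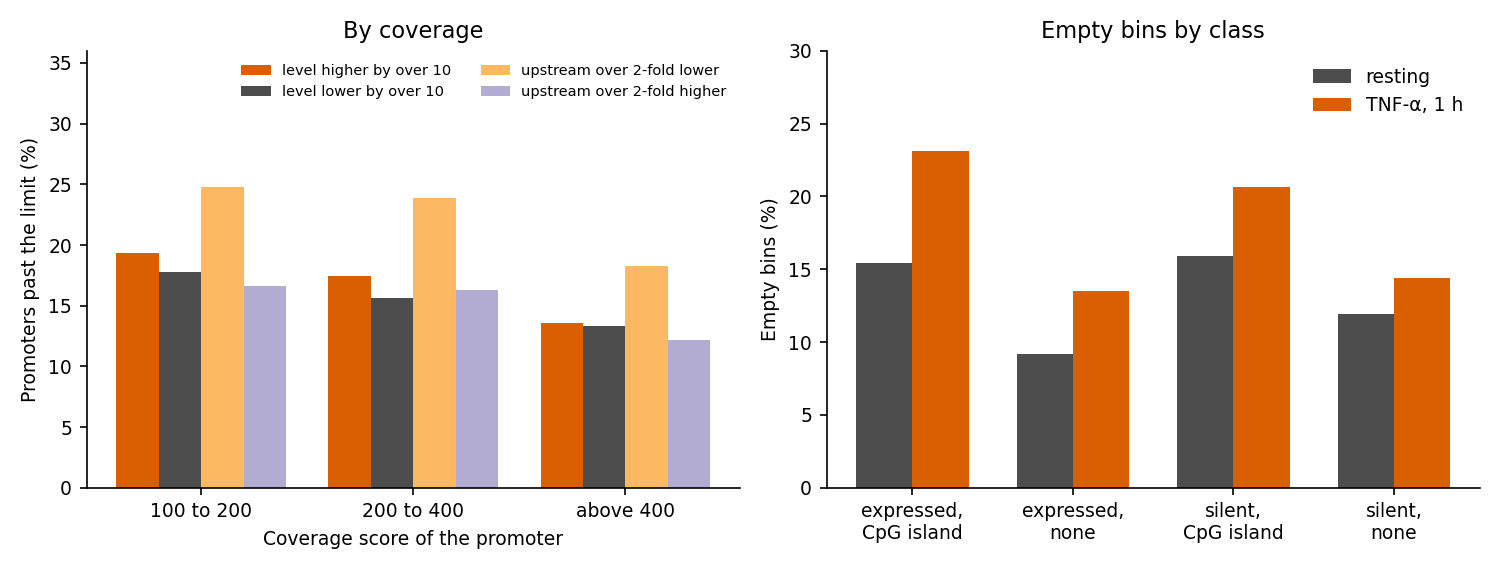
Left, percentage of promoters past each limit (y axis) by coverage score (x axis), with bars for a level higher or lower by over 10 and for upstream occupancy over 2-fold lower or higher after TNF-α. Right, percentage of empty 10 bp bins (y axis) in both sets by promoter class, which is highest at expressed CGI promoters after TNF-α (23.1%).

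Of 22 genes listed as NF-κB subunits, inhibitors and feedback regulators, 16 had 20 covered promoters, 15 of them in CGIs and 14 expressed. A ratio below 0.5 was found at 11 of the 20 at rest and at 14 after TNF-α, 9 of them in both states. The shares below 0.5 were 39.5 and 43.5% over all promoters and 62.7 and 69.5% over expressed CGI promoters. Nfkbia and Relb, at a score of 100, lay just outside the coverage limit, and Birc3, Nfkb1, Rel and Ripk2 further below it. The ratio of the mean profile of the 20 was 0.489 at rest and 0.306 after TNF-α, and 8 of 20 promoters had upstream occupancy over 2-fold lower and 4 over 2-fold higher, against 23.4% and 15.8% of all promoters and 33.5% and 18.5% of expressed CGI promoters. The level was higher by more than 10 at 4 (20%) and lower at 1 (5%), against 17.8% and 16.3% of all promoters. The median difference was 2.13 against 0.23 for all promoters. Nfkbiz, which encodes the inducible nuclear IκBζ, went from a level of 1.8 to 16.3, and its upstream window from 1.92 to no signal. Traf1, an adaptor of TNF receptors, had −8.56 and 5.34, and Ier3, an early response gene that modulates survival, had 10.6 and 20.9. Bcl3, an IκB protein that acts in the nucleus, had 4.65 and 16 and completes the 4. At Nfkbib, which encodes IκBβ, the level was 33.8 and 29.5, above the 95th percentiles of all promoters of 25.9 and 28.5, and its window held no signal in either. Rela, the p65 subunit, had levels of 17.8 and 14.1 and an upstream occupancy of 1.04 and 0. Bins without signal made up 8.68% of this list at rest and 16.5% after TNF-α.

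Genes with several starts gave different values at each. Tnfaip3 encodes A20, a ubiquitin-editing inhibitor of NF-κB signalling. Its upstream CGI start (chromosome 10, 18735216) had a level of 19.5 at rest and 4.64 after TNF-α, with upstream occupancy of 0 and 0.715, whereas its downstream start (18731769) had 4.21 and 9.62. Nfkb2, which encodes p100, the precursor of p52, had 19.8 and 13.2 at its most upstream covered start (chromosome 19, 46379227), where the window shown above held no signal at rest and 0.48 after TNF-α, and where 13% and 40% of bins were empty. At its second start (46380185) the level was 12.7 and 21.5, and at its most downstream start (46380420) −1.88 and −2.06. Neighbouring Nfkb2 starts lie within 1000 bp of each other, so that their windows share signal, and each was counted separately in the list above. The starts of Irf1, an interferon regulatory factor, lie 459 bp apart and had 16.8 and 25.6 at one and 6.23 and 7.63 at the other.

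Chemokine, cytokine and adhesion promoters showed no common direction. Of 36 genes, 29 had 31 covered promoters, of which 2 lay in a CGI and 13 carried a κB match between 250 bp upstream and 50 bp downstream of the TSS, against 11.1% of all promoters. Their mean profile had a ratio of 0.833 at rest and 0.799 after TNF-α, nearer to all silent than to all expressed promoters, most of which lie in CGIs. Among promoters without a CGI, the ratio was 0.745 and 0.757 at expressed and 0.981 and 1.004 at silent ones. Beside these classes the list was nearer to the expressed promoters in both states. The level was higher by more than 10 at 4 (12.9%) and lower at 4 (12.9%), against 17.8% and 16.3% of all promoters. The median difference was −0.744. The 4 that were higher all encode chemokines: Cxcl5 (−4.98 and 14.2), Ccl20 (−2.87 and 14.2), Ccl3 (−3.93 and 9.5) and Ccl2 (10.6 and 21.3). So do many other promoters of this list, among them Cxcl16, which had its largest negative difference. Ccl20 and Ccl3 lay just inside the coverage limit. Ccl3, and likewise Bcl3 above and Il1b and Il1a below, lay outside the rule for named genes and were added after their values were seen, to complete the counts. At Ccl2, a chemoattractant of monocytes with 37.7 FPKM before stimulation, upstream occupancy went from 1.28 to 0.106, and the +1 peak lay 30 bp further downstream. At Cxcl5, which attracts neutrophils, it went from 2.38 to 0.543, and at Ccl20, which attracts cells with the receptor CCR6 and had no detected expression at rest, from 2.1 to 0.563.

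The 4 chemokine and cytokine promoters with a level lower by more than 10 were Cxcl16 (3.79 and −19.8), Il6 (−1.41 and −24.2), Il1b (17.2 and −3.99) and Il1a (4.49 and −5.73). At Il6, a cytokine of the acute phase, upstream occupancy was 1.36 at rest and 2.27 after TNF-α, and no signal lay between 90 and 180 bp after TNF-α, where 0.826 lay at rest. The share of empty bins at Il6 went from 6.5 to 19.5%. Cxcl10, a chemoattractant of T cells, kept a similar level (14 and 13.3) while its upstream occupancy went from 0.631 to 0.00692. The other promoters fixed by name differed by less than 10: Ccl5 had 5.02 and −1.57, Cxcl2 4.24 and 6.82, and Icam1, an adhesion molecule for leukocytes, 3.46 and 2.83. Nearest to no difference were Lif (−2.5 and −2.49 at the start with a score of 385) and Csf3 (5.95 and 5.76). Cxcl1 and Vcam1 did not reach the coverage limit.

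**Figure D4:**
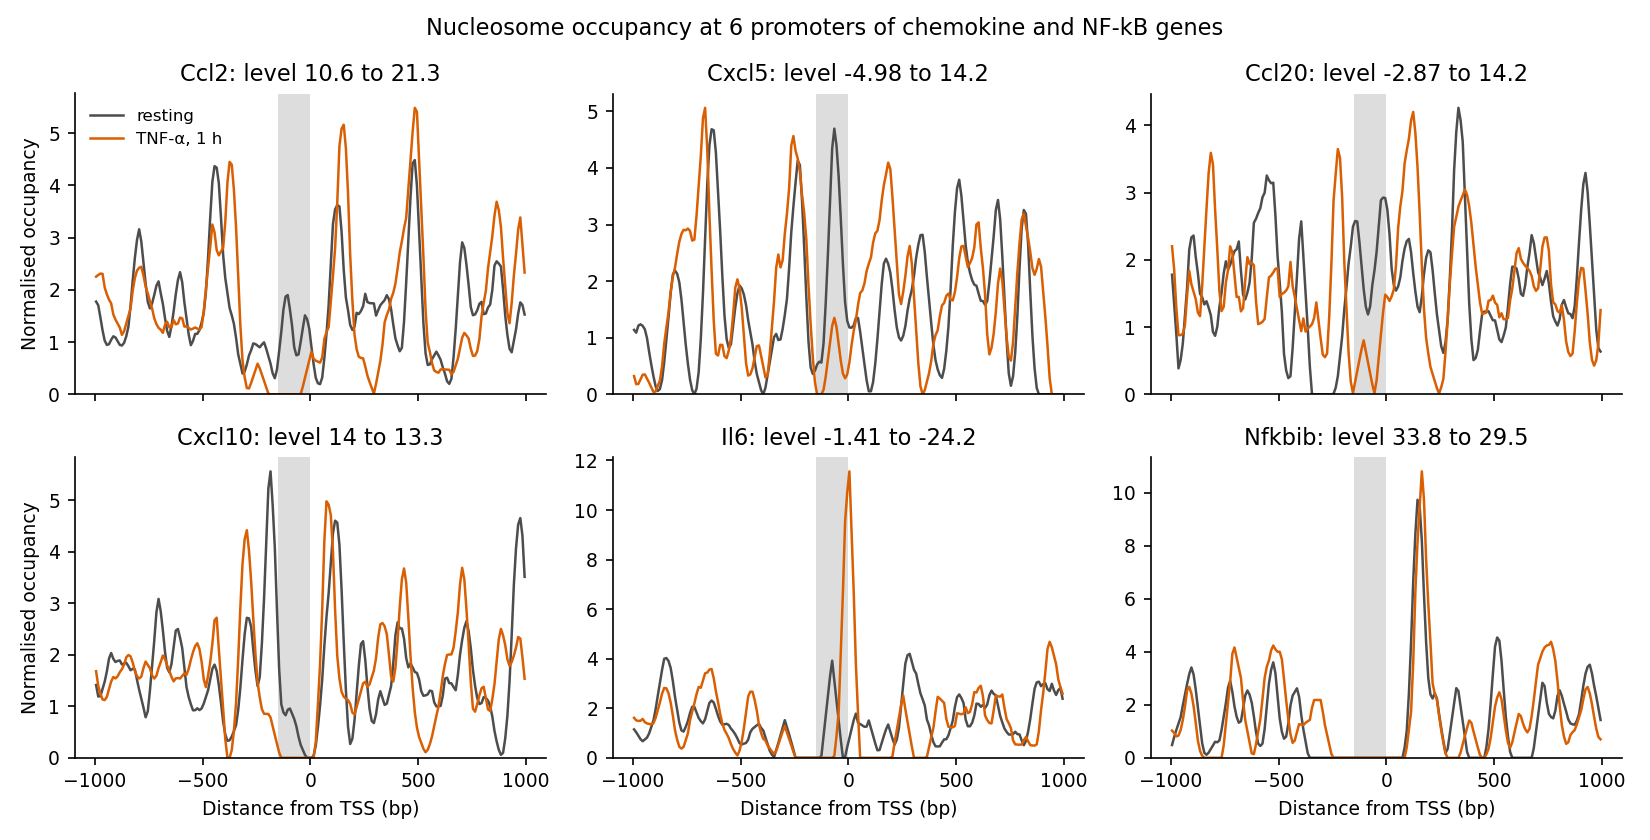
Normalised occupancy (y axis) against distance from the TSS in bp (x axis) at 6 promoters at rest (grey) and after TNF-α (orange), with the window from −150 to 0 bp shaded and the levels in the titles. Signal in the shaded window is lower after TNF-α at Ccl2, Cxcl5, Ccl20 and Cxcl10 and higher at Il6, while Nfkbib has none in either state.

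The TNF receptor complex carries the signal from the receptor to the IκB kinases, and its promoters had the widest range of differences in level among the 8 lists examined, from −29.3 to 39.7. Of 23 genes, 14 had 19 covered promoters, with a median difference of 2.5. The level was higher by more than 10 at 6 (31.6%) and lower at 3 (15.8%), against 17.8% and 16.3% of all promoters. Empty bins made up 11.9% of the list at rest and 21.4% after TNF-α. Traf2, the adaptor that recruits ubiquitin ligases to the receptor, had −5.51 at rest and 34.2 after TNF-α, and its upstream window went from 2.18 to no signal. Map3k7, which encodes the kinase TAK1, had −19 and 8.27. Tnfrsf1a, the main TNF receptor of fibroblasts with 44.9 FPKM, had 8.55 and 20.2, with upstream occupancy of 0.978 and 0.479. In the opposite direction, Casp8, the initiator caspase, had 5.08 and −9.15. Ikbkg, which encodes the IκB kinase regulator NEMO, had −7.09 and −36.3 at one start, where 34.5% of bins were empty at rest and 53.5% after TNF-α, and 21.8 and 24.3 at a start 366 bp away. Tradd, the adaptor bound directly by the receptor, had 6.26 and 6.96 at a coverage score of 898.

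Immediate early and AP-1 genes are transcribed within minutes of many stimuli. Only 13 of 32 listed genes were covered, and Fos and Egr1 were not. The ratio of their mean profile was 0.458 at rest and 0.609 after TNF-α, the opposite direction to that of the NF-κB list, with 2 promoters over 2-fold lower and 3 over 2-fold higher upstream, and with 13 and 20.9% of bins empty. The upstream shares, 15.4% lower and 23.1% higher, stand against 23.4% and 15.8% of all promoters. The level was higher by more than 10 at 1 (7.69%) and lower at 3 (23.1%), against 17.8% and 16.3%. Klf6, a zinc finger factor, had 25.5 at rest and 7.44 after TNF-α, and Dusp2, a MAP kinase phosphatase, 1.83 and −12.6. Egr3 had −12.7 and 7.47 and Gadd45a, a stress gene, 21.4 and 29.2. Junb, an AP-1 subunit, had 6.09 and 5.72 and Zfp36, which encodes the mRNA decay factor tristetraprolin, 13 and 12.5.

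Interferon response genes had nearly the same mean profile in both states. Of 40 genes, 35 had 39 covered promoters. Their ratio was 0.637 at rest and 0.638 after TNF-α, and the median difference of level was −0.403. By more than 10, 4 (10.3%) were higher and 1 (2.56%) lower, against 17.8% and 16.3% of all promoters. Mx2, an antiviral GTPase, had −3.59 and 15.1. Irf7, a factor that drives interferon genes, had 9.67 and −2.37, and Gbp3, a guanylate binding protein, 19.6 and 9.67. Ifit3 had 9.86 and 9.66, and Oasl2 −0.243 and −0.646.

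Fibroblast matrix and stromal genes, which 3T3 cells transcribe without stimulation, had the lowest median difference of the 8 lists, −4.79. Of 29 genes, 16 had 17 covered promoters, and the ratio of their mean profile was 0.652 at rest and 0.721 after TNF-α. By more than 10, 1 (5.88%) was higher and 4 (23.5%) were lower in level, against 17.8% and 16.3% of all promoters. Timp1, an inhibitor of metalloproteinases, had 34.4 and 9.34 at a start with hardly any expression (0.00325 FPKM), and Pdgfra, a growth factor receptor with 388 FPKM, had 8.42 and −4.11. Timp2, another such inhibitor, had −6.29 and 5.33, and Lox, an enzyme that cross-links collagen, 8.85 and 12.8. Col1a1, the main chain of type I collagen with 556 FPKM, had 5.73 and −1.22 at a score of 100.5, just inside the coverage limit. S100a4 (−3.66 and −3.28) and Acta2 (−3.42 and −2.95) lay nearest to no difference.

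Differences past the limits were also found in lists of myeloid and of ribosomal protein genes. The 32 promoters of myeloid and dendritic cell genes, mostly not expressed here, had a median difference of 1.21 and a range from −15.6 to 26.5. By more than 10, 6 (18.8%) were higher and 4 (12.5%) lower, against 17.8% and 16.3% of all promoters. Of the 32, 6 (18.8%) carried a κB match, against 11.1% of all promoters, and their levels moved in both directions. They were Cd40, a member of the TNF receptor family (11.3 and −1.01), Tlr2, a receptor for bacterial lipopeptides (−8.54 and −1.97), and Cd74 (−4.47 and 4.57). The others were Cd86 (−18.3 and −22.5), H2-Aa (−1.71 and 4.61) and Fcgr3. All but Fcgr3 were named after their matches were seen. H2-Eb1, an MHC class II chain, had −3.35 and 23.1, Cebpe −8.57 and 16.9, Irf4 3.65 and −11.9 and Tyrobp 0.102 and −13.1. Fcgr3 (1.53 and 2.46) and Itgam (−15.9 and −17.4) differed least. Of 68 promoters of cytosolic ribosomal proteins, 62 in CGIs, 17 (25%) were higher and 12 (17.6%) lower by more than 10. Upstream occupancy was over 2-fold lower at 24 of them (35.3%) and over 2-fold higher at 14 (20.6%). Among expressed CGI promoters the same shares were 20.2 and 16.7% for the level and 33.5 and 18.5% upstream. The ratio of the mean profile of the 68 was nonetheless 0.425 at rest and 0.453 after TNF-α, so that counts and mean differed in direction. Starts of the same gene were counted separately. Rpl35a starts at 33056539, 33056568 and 33056600, and these windows share signal, with upstream occupancies of 0.965 and 5.52, 0.815 and 4.69, and 0.879 and 3.56. Each is among the lower levels and the higher upstream calls. Their part in the mean ratio was not tested. Rps12 (3.81 and 31.2) and Rpl18 (14.2 and 41.3) had the largest positive differences of that list. Rpl35a (5.08 and −31.7), with 18 and 48% empty bins, and Rpsa (53.6 and 18.4), with 50.5 and 30.5%, had the largest negative ones. Rps21 (16.7 and 17.1) and Rpl38 (4.87 and 4.39) differed least. Empty bins at ribosomal protein promoters went from 20.6 to 30.6%, more than in any other of the 8 lists in either state.

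**Figure D5:**
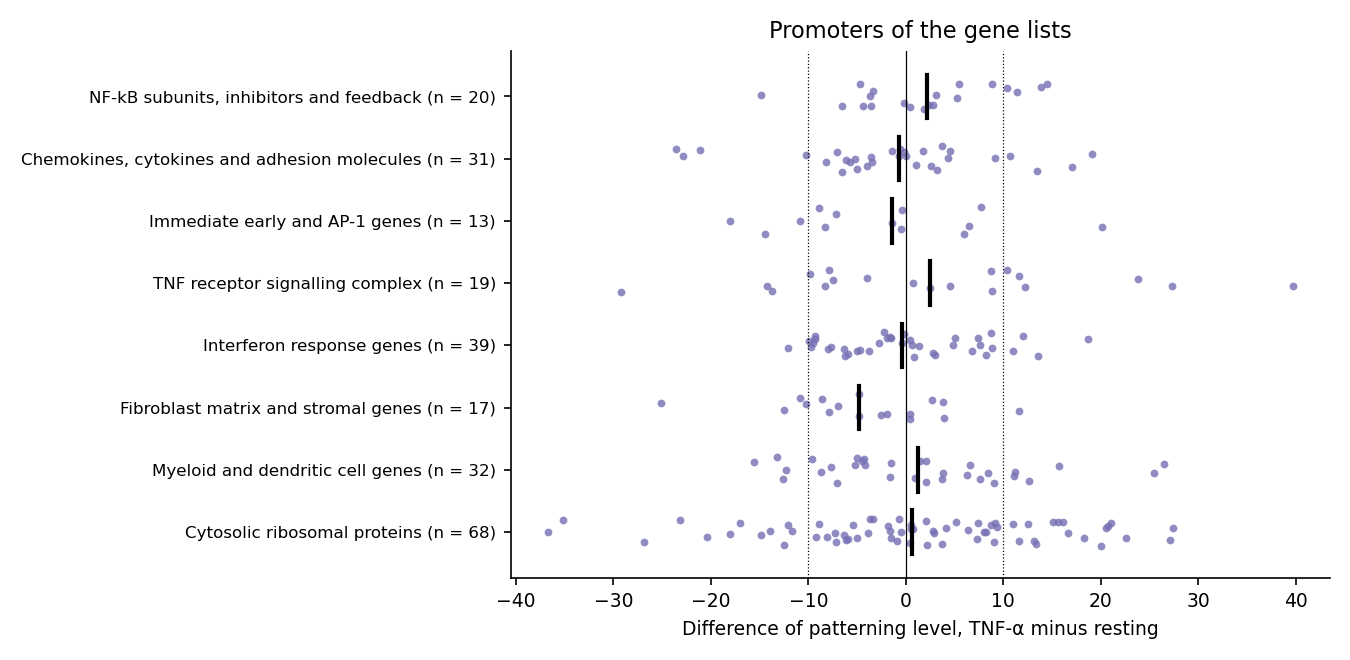
Difference of patterning level, TNF-α minus resting (x axis), for each covered promoter (points, jittered vertically) of 8 gene lists (y axis), with black bars at the medians and dotted lines at differences of −10 and 10. Every list spans both directions, and the medians lie between −4.79 and 2.5.

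Among well covered promoters, the largest differences in level were found outside these lists with the exceptions of Cxcl5 and Cxcl16. To keep sparse promoters out, 1470 promoters with a score above 300 and at most 10% empty bins in both sets were ranked, which also keeps out the deepest NDRs: 25.1% of them are CGI promoters against 56.2% of all. The largest positive differences were those of 2010016I18Rik (−7.04 and 16), Niban3 (−13.5 and 7.95), Dennd2d (−8.69 and 12.5), Tbc1d16 (0.937 and 21.3), Tec (2.56 and 22.4), Tmem190 (−4.93 and 14.8), Gm15850 (1.02 and 20.6), Cxcl5, the non-coding transcript NR_027940 (−7.14 and 11.9) and 1500009C09Rik (0.105 and 19.1). The starts of Dennd2d, a regulator of Rab GTPases, and 2010016I18Rik lie close together on opposite strands and share their signal. Tbc1d16, another Rab regulator, was expressed at 5.58 FPKM, and Tec, a tyrosine kinase of haematopoietic cells, at 0.00781 FPKM. The largest negative differences were those of Zmynd15 (9.53 and −17.6), Scarna10 (9.78 and −16.6), Hcfc1r1 (11.4 and −13.5), Cass4 (13.9 and −10.6), Guk1 (12.8 and −11.3), Cxcl16, Hsd17b1 (9.45 and −13.4), Osbpl9 (21.8 and −0.346), Yes1 (22.6 and 1.71) and Nif3l1 (12.2 and −8.4). Zmynd15 and Cxcl16 start 362 bp apart on opposite strands. Scarna10 is a small RNA of Cajal bodies, Osbpl9 encodes a lipid transfer protein and Hsd17b1 an enzyme of oestradiol synthesis. Upstream occupancy at Yes1, a Src family kinase, was 0.0391 at rest and 1.84 after TNF-α, and at Guk1, which encodes guanylate kinase, 0.808 and 2.75.

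Ranked by upstream occupancy relative to the flank among the same 1470 promoters, the largest negative differences were those of NR_027940, with a ratio of 1.22 at rest and 0.0889 after TNF-α, Zfp169 (0.533 and 0.0557), Ckb (1.52 and 0.162), Zfp120 (0.466 and 0.0566) and Nudt22 (0.639 and 0.0811). Ckb encodes the brain-type creatine kinase, and Zfp169 and Zfp120 are zinc finger genes. At Zfp169 and Zfp120 hardly any signal remained in the window after TNF-α (0.0056 and 0.00577). The largest positive ones were those of Yes1 (0.0726 and 1.08), Cass4 (0.104 and 1.45), Zmynd15 (0.0772 and 0.921), Rbak (0.0525 and 0.549) and Mpv17l2 (0.0517 and 0.532). At all of these but Ckb the window held less than the 0.1 added in one of the states, down to 0 at Rbak and 0.00121 at Mpv17l2 at rest, so that their ratios and ranks depend on it. Of these 10, NR_027940 was the only one also named for a higher level, and Yes1, Cass4 and Zmynd15 were also among those with the largest negative differences of level.

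Promoter sequence and expression class were compared next. At the 787 expressed promoters with a κB match between 250 bp upstream and 50 bp downstream, the ratio of the mean profile was 0.475 at rest and 0.406 after TNF-α, and at the 5671 without one 0.506 and 0.463. A level higher by more than 10 was found for 19.4% and 18.5% of them, and a lower one for 16.5% and 16.6%. With the letters TATAAA on either strand in that window (9.72% of all promoters), 447 expressed promoters had ratios of 0.633 and 0.589. With expressed promoters in 3 groups by GC content within 200 bp of the TSS, the ratios were 0.628 and 0.614 in the lowest and 0.445 and 0.381 in the highest group. Over 5 groups of expression, the ratio was 0.582 and 0.554 in the lowest and 0.472 and 0.438 in the highest group. The 474 promoters silent here but expressed in dendritic cells had ratios of 0.882 and 0.846 and a median difference of level of 0.68. The 1579 silent in both cell types had 0.965 and 0.994 and a median difference of −0.239. In the opposite case, 400 promoters expressed here and silent in dendritic cells, the ratio was 0.81 in both states.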

How the data were processed

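ChIP-MNase occupancies for H3K4me1 in resting and TNF-α-stimulated 3T3 fibroblasts were used. According to the methods of the study, the authors aligned reads with bowtie to mm9 (the submitters' notes list Bowtie2, and which of them made these files is not stated), removed excess duplicates, extended single-end reads to the mean fragment size, counted fragments in 10 bp bins, divided by the total in the surrounding 1 kb and averaged 50 bp. The deposited signal holds 200 bins per promoter from −1000 to 1000 bp and no read counts; an empty field was read as 0. The authors' annotation gives a coverage score, itself a signal of fragments near each TSS, and FPKM before stimulation. Its 2 columns of log2 expression differences upon stimulation, the authors' own comparisons, were not used, so inducible promoters were not taken apart from others. Start coordinates were read as counted from 1, since 7954 of 13036 plus-strand starts then fall on an annotated transcript start.

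Expressed promoters exceeded 0.02 times the mean FPKM of all promoters (1.6). Peaks were taken after leaving out the lowest 20% of topographic prominences. A CGI was called where the 200 bp on either side of the TSS held over 50% GC and more than 0.6 of the CpGs expected from it. Gene symbols were matched by RefSeq transcript for 13134 promoters (96.9%). Named promoters were the 10 largest rises and 10 largest falls of level and the 5 largest falls and rises of relative upstream occupancy among promoters with a score above 300 and at most 10% empty bins, a fixed set of TNF-α pathway names, and in each list the 2 largest rises, the 2 largest falls and 2 promoters nearest to no difference. Promoters, lists and limits were chosen with earlier results of these data known, and the 10-letter κB form was added after the sequences had been read. Analyses used Python 3.11.15, numpy 2.4.6, scipy 1.17.1, pandas 2.3.3 and matplotlib 3.10.9 and were checked on simulated occupancies. A promoter that this rule names in the interferon list is not reported here.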

Additional observations from a re-analysis of the deposited data

How the results depend on the processing

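No paired analysis was possible because each state is given as 1 pooled set, and leaving out a replicate was not possible for the same reason. Of 51 recalculations of the 8 summary results, 26 stayed within 1.5 times the main count, or close to the main value, and 4 changed sign. The template of the level was made anew in each setting from the expressed promoters it keeps, so that the level itself can differ between settings. Counts were compared as such and not as shares. Settings that leave 3689 or 3983 of the 13559 promoters could thus hardly stay within this limit, and the 26 do not measure stability. The small median difference of level at expressed promoters became −0.0484 with a coverage score above 300, 0.0602 with at most 10% empty bins in both sets and 0.0209 at the 343 promoters above the mean expression, and at silent promoters it became −0.800, 0.137 and, with 1 promoter per run of starts within 1000 bp (added after seeing the data), 0.0366. The difference in the upstream ratio of expressed promoters, −0.0462, became −0.0111 with a score above 300, 0.00506 with at most 10% empty bins, a condition that leaves 1258 promoters and removes those with a deep NDR, and −0.0192 above the mean expression. Dividing each set by its mean occupancy, which shrinks the scale of the level, gave 1057 promoters higher and 934 lower by more than 10. A score above 300 left 3689 promoters, with 485 higher and 521 lower in level, 736 lower and 523 higher upstream and 1448 with a moved +1 peak. At most 10% empty bins left 3983, with 450, 451, 358, 359 and 1444. As shares, the main counts were 17.8, 16.3, 23.4, 15.8 and 41.8%. With a score above 300 they were 13.2, 14.1, 20, 14.2 and 39.3%, and with at most 10% empty bins 11.3, 11.3, 8.99, 9.01 and 36.2%. With a pseudocount of 0.5, 1901 were lower and 1298 higher upstream, from −200 to 50 bp 1422 were higher, and with signal upstream in both sets (also added later) 1734 were lower and 1580 higher. This last condition selects promoters by the upstream signal itself, so that its counts are no separate check. Among promoters with few empty bins, lower and higher values upstream were thus nearly equal in number, whereas lower values outnumbered higher ones among all. Depth limits single promoters: at the median coverage score of 201, if it counts fragments over the 2000 bp, an even spread leaves 15.1 fragments per 150 bp. By the paper's methods that score refers to non-stimulated cells, so the depth of the TNF-α set stays unknown.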
